A study of Mus musculus with 16 samples.

Results

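Germ cell antigens encoded on autosomes, 10 genes in all, were followed through the thymic epithelium of the mouse: Ddx4, Dazl, Sycp1, Ldhc, Fabp9, Acrv1, Tnp1, Tnp2, Prm1 and Prm2. They were taken by name, whatever their values, and all 10 have an entry among the 23420 gene entries of the count table and the 23063 of the RPKM table. RNA had been sequenced from 16 libraries of mouse thymic epithelial cells sorted by flow cytometry as negative for CD45 and positive for EpCAM, with Ly51 marking the cortex and the lectin UEA1 the medulla. Cortical epithelium (cTEC) and the medullary epithelium with low (mTEClo) or high (mTEChi) surface MHC class II each came from psmb11 +/+ mice (WT) and psmb11 -/- mice (KO), with 2 libraries per genotype of cTEC and 3 per genotype of mTEClo and of mTEChi. Psmb11 encodes the thymoproteasome subunit of cTEC, and the design asks what its absence does to each population. All libraries carry the strain label C57BL/6-derived BAC and the labels name no other allele and no treatment. The sample labels give an age of 6 to 8 weeks and the series' design text 11 thymi, whereas the protocol speaks of 14 mice aged 7 days; the number of animals behind a library is not stated, and p-values therefore reflect only how libraries of a group vary, which may be technical.

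Medullary thymic epithelial cells express many genes that otherwise belong to single tissues, and developing T cells that recognise the encoded proteins are deleted or diverted to a regulatory fate. The autoimmune regulator Aire, which is highest in mTEChi, drives much of this expression, and Fezf2 drives another share. Proteins of male germ cells are a special case of such antigens. Meiotic and post-meiotic cells of the testis first appear around puberty, after T-cell tolerance is established, and most lie behind the blood-testis barrier. The 10 genes span germ cell development. Ddx4 is the RNA helicase of germ cell granules and Dazl an RNA-binding translational regulator, both made from the early germ line onward. Sycp1 forms the transverse filaments of the synaptonemal complex in meiosis. Ldhc is the lactate dehydrogenase subunit of spermatocytes and sperm, Fabp9 a fatty acid binding protein of the perforatorium of the sperm head and Acrv1 a protein of the acrosomal matrix. Tnp1 and Tnp2 are the transition proteins that replace histones in spermatids, and Prm1 and Prm2 the protamines that then pack sperm DNA.

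The genes sit on 7 autosomes, with coordinates on mm10 as the deposited RPKM table gives them and exons from GENCODE. Tnp2 (chr16:10787935-10788655), Prm2 (chr16:10791381-10792097) and Prm1 (chr16:10796332-10796823) form a cluster of 8889 bases on the minus strand together with Prm3, while Tnp1 is alone on chromosome 1 (chr1:73015075-73015899). Each of these 4 has 2 exons in its first listed transcript. Fabp9 (chr3:10193624-10197283) has 4 exons and lies among other genes of fatty acid binding proteins. Sycp1 (chr3:102818499-102936100) has 33 exons and Ddx4 (chr13:112598333-112652310) has 21. Dazl (chr17:50279394-50293599), Acrv1 (chr9:36693220-36698837) and Ldhc (chr7:46861263-46878142) have 11, 4 and 8 exons.

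The promoters of these genes differ in their content of CG dinucleotides, which the following stretches show. They are the 250 bases before the start of transcription, written 5′ to 3′ on the gene's strand from RefSeq on GRCm38.p6, for a pair of genes active from early or meiotic germ cells (Sycp1, Dazl) and a pair active after meiosis (Acrv1, Prm2). Capitals mark CG dinucleotides, the sites of DNA methylation.
Sycp1, chr3:102936101-102936350, minus strand: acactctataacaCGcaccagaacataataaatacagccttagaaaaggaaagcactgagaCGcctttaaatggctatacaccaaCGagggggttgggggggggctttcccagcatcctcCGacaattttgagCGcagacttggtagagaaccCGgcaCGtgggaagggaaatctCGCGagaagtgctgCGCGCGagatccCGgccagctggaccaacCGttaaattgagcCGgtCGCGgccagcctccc
Dazl, chr17:50293621-50293870, minus strand: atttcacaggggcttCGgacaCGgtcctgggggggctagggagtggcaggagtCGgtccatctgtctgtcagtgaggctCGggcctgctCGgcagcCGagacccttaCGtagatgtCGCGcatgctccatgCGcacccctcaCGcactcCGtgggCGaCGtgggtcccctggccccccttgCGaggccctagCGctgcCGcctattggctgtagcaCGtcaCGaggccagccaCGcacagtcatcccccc
Acrv1, chr9:36692970-36693219, plus strand: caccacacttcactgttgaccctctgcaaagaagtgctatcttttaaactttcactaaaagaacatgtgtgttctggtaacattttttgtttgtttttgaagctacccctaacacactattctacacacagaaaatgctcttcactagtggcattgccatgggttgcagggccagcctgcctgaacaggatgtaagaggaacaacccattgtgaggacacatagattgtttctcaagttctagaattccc
Prm2, chr16:10792106-10792355, minus strand: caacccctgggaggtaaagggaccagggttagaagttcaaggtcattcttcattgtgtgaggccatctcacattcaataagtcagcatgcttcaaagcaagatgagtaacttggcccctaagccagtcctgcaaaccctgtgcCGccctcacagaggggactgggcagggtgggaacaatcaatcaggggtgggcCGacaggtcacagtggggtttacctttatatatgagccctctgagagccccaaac
The Sycp1 and Dazl stretches hold 17 and 20 CG dinucleotides, the Acrv1 stretch 0 and the Prm2 stretch 2. Over the window from 250 bases before to 50 bases after the start, 9 of the 10 genes had a RefSeq promoter in the table used, Fabp9 being the exception. The ratio of observed to expected CG dinucleotides there was 0.978 for Ddx4, 0.874 for Sycp1 and 0.795 for Dazl, against a median of 0.384 over 32851 promoters. It was 0.424 for Ldhc, 0.313 for Tnp1, 0.174 for Tnp2, 0.137 for Prm2, 0.0718 for Acrv1 and 0.0487 for Prm1. Thus Ddx4, Dazl and Sycp1 had CG-rich promoters. Ldhc, which is also a gene of spermatocytes, and the genes of spermatids had promoters near or below the median.

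A set of 4 short motifs was searched on both strands of the same windows; none of them contains another. The cAMP response element TGACGTCA, a site of CREM in spermatids, was in 0 of the 9 promoters and in 1.79% of all 32851. The E2F6 element TCCCGC was in 2, at 136 bases before the start in Ddx4 and 2 bases after it in Sycp1, and in 19.98% of all promoters. The E-box CACGTG was also in 2, in Ddx4 at 29 bases and in Sycp1 at 94 bases before the start, and in 7.15% of all promoters. The letters of the TATA box, TATAAA, were matched in Prm2 at 31 bases before the start, on the strand opposite to the gene. The gene's own strand reads TTTATA there. On either strand, the letters were in 13.6% of all promoters. A match here is a description of the letters, not evidence of binding.

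The libraries held 64753610 to 146707262 reads assigned to genes, so that 3 reads, the limit that a count of 0 allows, correspond to 0.0204 to 0.0463 CPM, counts scaled to a common library size; such limits and intervals cover counting error only. Psmb11 was at 174 and 147 CPM in the WT cTEC libraries and at 2.10 and 0 CPM in the KO ones, and in mTEClo and mTEChi it was at 7.77 to 12.6 CPM in WT and 0.713 to 1.597 CPM in KO libraries, each library on the side its label gives. Aire was at 1244 to 1625 CPM in mTEChi and at 8.16 to 17.9 CPM in mTEClo. The 8 cTEC markers summed to 6594 to 7624 CPM in WT cTEC, 2020.3 to 2351 in WT mTEClo and 1082 to 1122 in WT mTEChi. The 2 KO cTEC libraries stood apart: Aire was at 107 and 48.4 CPM in them against 14.03 and 11.2 in WT cTEC, and their cTEC markers summed to 4198 to 5625 CPM. All results on KO cTEC below rest on these 2 libraries. CPM here use library totals rescaled by TMM, which aligns libraries on genes that change little, and do not correct for gene length.

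In every mTEChi library, all 10 genes were expressed, and each was higher than in every mTEClo library of its genotype. Summed over the 10 genes, the level was 57.5 to 73.2 CPM in the 6 mTEChi libraries, 3.31 to 4.08 CPM in the 6 mTEClo libraries, 1.49 and 2.70 CPM in WT cTEC and 11.5 and 6.80 CPM in KO cTEC. Fabp9 made up 62.7% to 72.7% of the 10 genes' reads in mTEChi. In bulk samples such as these, a few cells with much RNA of a gene and many cells with little cannot be told apart.

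**Figure D1:**
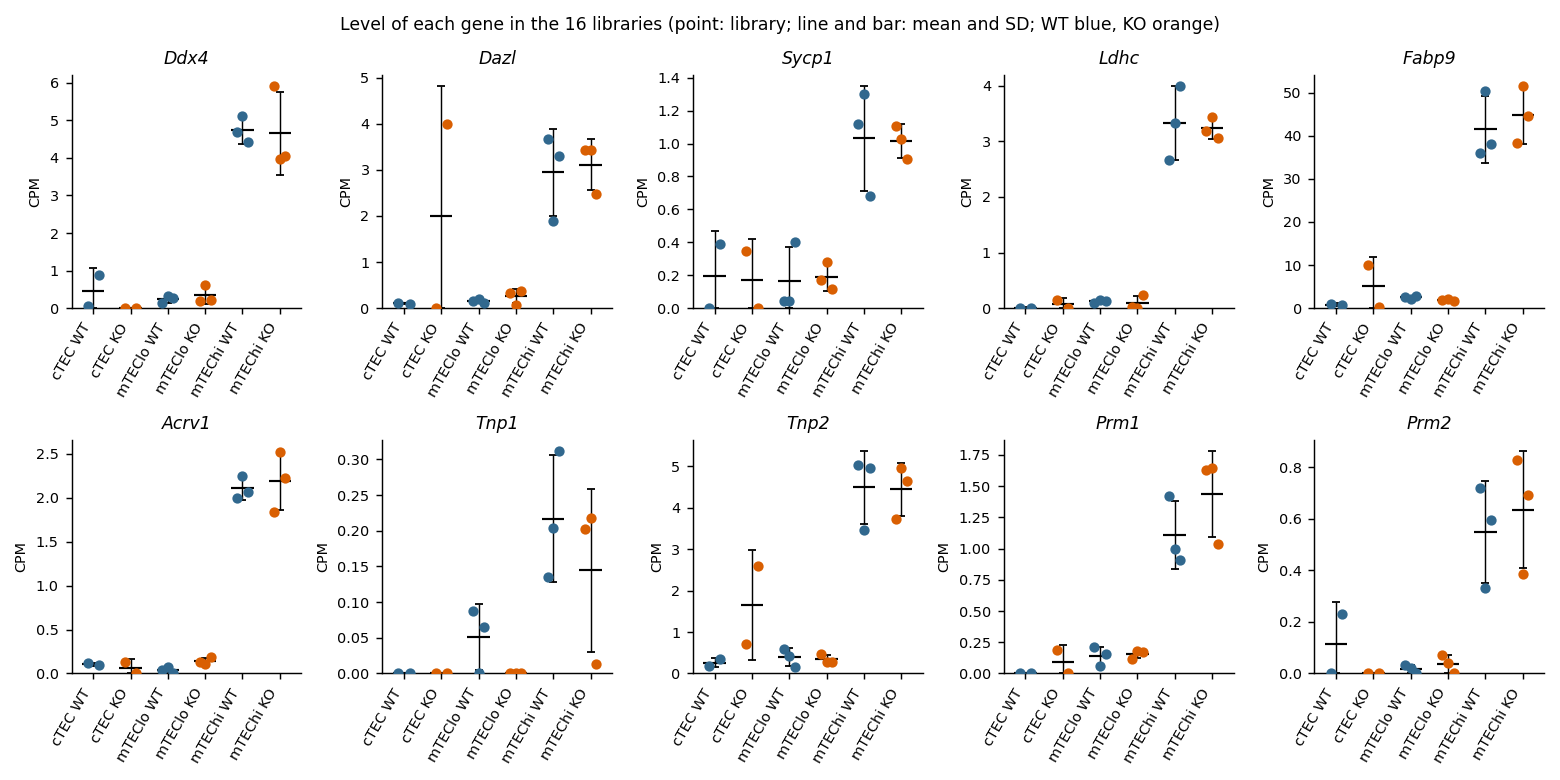
Level of each of the 10 genes in CPM (linear axes from 0) in the 16 libraries, grouped by population and genotype (WT blue, KO orange); points are libraries, the line the group mean and the bar the SD. Fabp9 reached 36.1 to 51.6 CPM in mTEChi and at most 2.77 CPM in mTEClo, and for all 10 genes the mTEChi libraries lay above the mTEClo libraries of the same genotype.

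Among the genes of the early germ line, Ddx4 was at 4.68, 5.104 and 4.41 CPM in the WT mTEChi libraries 1 to 3 and at 0.143, 0.3297 and 0.262 CPM in the WT mTEClo libraries. Its KO mTEChi libraries held 5.92, 3.98 and 4.05 CPM and its KO mTEClo libraries 0.189, 0.615 and 0.2304 CPM. The lowest mTEChi library thus exceeded the highest mTEClo library in both genotypes, and WT and KO overlapped within each population. Ddx4 rose from WT mTEClo to WT mTEChi on the log2 scale by 4.25 (SE 0.29, adjusted p = 6.98e-08), and in KO by 3.75 (SE 0.42, adjusted p = 1.94e-05), the latter becoming 4.45 without KO mTEClo library 2, the highest of its group. Dazl was at 3.66, 1.88 and 3.303 CPM in WT and 3.43, 3.43 and 2.48 CPM in KO mTEChi. In mTEClo it was at 0.154, 0.206 and 0.109 CPM in WT and 0.325, 0.0794 and 0.365 CPM in KO. WT mTEChi library 2 was the lowest of the mTEChi libraries for Dazl, and it still lay above all mTEClo libraries. The log2 fold change of Dazl was 4.2005 (SE 0.39, adjusted p = 9.53e-07) in WT and 3.58 (SE 0.46, adjusted p = 5.22e-05) in KO.

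Sycp1, the meiotic gene, was at 1.12, 1.3005 and 0.6804 CPM in WT mTEChi and 1.11, 1.03 and 0.908 CPM in KO mTEChi. In mTEClo it was at 0.04396, 0.0412 and 0.405 CPM in WT and 0.171, 0.278 and 0.115 CPM in KO. WT mTEClo library 3 stood out among the mTEClo libraries, with 37 reads where the other 2 of its group had 4 each, and lay below all mTEChi libraries. Sycp1 rose on the log2 scale by 2.67 (SE 0.71, adjusted p = 0.00424) in WT, which became 4.54 without WT mTEClo library 3, and by 2.42 (SE 0.43, adjusted p = 4.70e-04) in KO. In the fit of all 16 libraries, neither difference passed the threshold (adjusted p = 0.0866 and 0.1095). A pseudogene on another chromosome, Sycp1-ps1, has an entry of its own with 201 reads in WT and 154 reads in KO mTEChi; how reads matching both were assigned is not given in the sources used here, so the split between them is uncertain.

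Of the genes of spermatocytes and spermatids that encode sperm proteins, Fabp9 was the most abundant. It was at 36.1, 50.3 and 38.01 CPM in WT mTEChi and 38.2, 51.6 and 44.5 CPM in KO mTEChi. In mTEClo it was at 2.68, 2.11 and 2.77 CPM in WT and 1.99, 2.03 and 1.73 CPM in KO. The 2 populations were far apart, and Fabp9 rose on the log2 scale by 4.03 (SE 0.15, adjusted p = 3.32e-10) in WT and 4.54 (SE 0.14, adjusted p = 2.68e-09) in KO. Ldhc was at 2.66, 3.33 and 3.998 CPM in WT and 3.19, 3.44 and 3.05 CPM in KO mTEChi. Its mTEClo libraries held 0.0879, 0.144 and 0.131 CPM in WT and 0.0271, 0 and 0.2304 CPM in KO. Ldhc, the testis isozyme gene, rose by 4.75 (SE 0.33, adjusted p = 7.53e-08) in WT and by 5.204 (SE 0.75, adjusted p = 1.15e-04) in KO on the log2 scale, the latter becoming 7.72 without KO mTEClo library 3, which held 24 of that group's 27 reads. Acrv1 was at 1.99, 2.25 and 2.07 CPM in WT and 1.84, 2.52 and 2.22 CPM in KO mTEChi. In mTEClo it was at 0.04396, 0.0721 and 0 CPM in WT and 0.126, 0.109 and 0.182 CPM in KO. Acrv1, with only 11 reads over the WT mTEClo libraries, had the largest fitted rise of the 10 genes in WT, 5.68 (SE 0.55, adjusted p = 1.54e-06), and rose by 3.96 (SE 0.36, adjusted p = 3.57e-06) in KO; without WT mTEClo library 2 the WT value was 6.49.

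The genes of spermatid chromatin differed widely in level. Tnp2 was at 5.03, 3.47 and 4.96 CPM in WT and 3.72, 4.96 and 4.65 CPM in KO mTEChi, against 0.594, 0.433 and 0.153 CPM in WT and 0.469, 0.278 and 0.288 CPM in KO mTEClo. It rose on the log2 scale by 3.48 (SE 0.39, adjusted p = 5.38e-06) in WT and 3.67 (SE 0.29, adjusted p = 1.33e-06) in KO. Tnp1, the other transition protein gene, was the least abundant of the 10 in CPM, at 0.136, 0.204 and 0.312 CPM in WT and 0.202, 0.218 and 0.0126 CPM in KO mTEChi, where library 3 had 2 reads. In mTEClo it was at 0.0879, 0 and 0.0656 CPM in WT and at 0 in all 3 KO libraries. The lowest mTEChi library of each genotype still exceeded its highest mTEClo library, in KO by those 2 reads alone. Tnp1 rose by 2.04 (SE 0.79, adjusted p = 0.03197) in WT. This call did not hold in DESeq2's Wald test (adjusted p = 0.0759), without the filter on low counts (0.0804), in the fit of all 16 libraries (0.162) or with the replicate number as a block (0.0793), nor without WT mTEClo library 2 or 3 or WT mTEChi library 2 or 3 (log2 fold changes of 1.45 to 2.69 over the 6 libraries left out in turn, adjusted p up to 0.107). In KO it was at least 12.4-fold higher in mTEChi, with 40 reads against 0 and a limit of 3 reads over the mTEClo group.

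Prm1 was at 1.42, 0.998 and 0.907 CPM in WT and 1.63, 1.64 and 1.04 CPM in KO mTEChi. Its mTEClo libraries held 0.209, 0.0618 and 0.153 CPM in WT and 0.117, 0.179 and 0.173 CPM in KO. Prm1 rose on the log2 scale by 2.96 (SE 0.48, adjusted p = 1.29e-04) in WT and 3.18 (SE 0.39, adjusted p = 3.84e-05) in KO. Prm2, its neighbour, was at 0.7204, 0.3304 and 0.595 CPM in WT and 0.829, 0.385 and 0.694 CPM in KO mTEChi. In mTEClo it was near the limit of detection, at 0.03297, 0.0206 and 0 CPM in WT and 0.0722, 0.0397 and 0 CPM in KO. It rose by 4.82 (SE 0.75, adjusted p = 8.83e-05) in WT and 4.04 (SE 0.76, adjusted p = 6.94e-04) in KO, values that became 5.52 without WT mTEClo library 1 and 4.92 without KO mTEClo library 1. Levels differed within the cluster on chromosome 16: Tnp2 at one end of it was at 4.49 ± 0.885 CPM (SD, n = 3) in WT mTEChi, Prm2 inside it at 0.549 ± 0.199 CPM (SD, n = 3), and Prm3, which lies between Tnp2 and Prm2, had 1 read in the 3 WT and 21 reads in the 3 KO mTEChi libraries.

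Set against all genes, the rise from mTEClo to mTEChi was large for these genes but common in kind. All 10 had WT libraries that did not overlap and were higher in mTEChi, as did 44.5% of all genes tested, and all 10 were called by edgeR's quasi-likelihood test at an adjusted p under 0.05, against 43.0% of all genes. Only 3 of the 10, Fabp9, Tnp2 and Ddx4, would have passed the filter on low counts on their WT mTEClo libraries alone; the others entered the test through mTEChi and could hardly have been found lower there. With no filter, 9 of the 10 were called, all but Tnp1, against 41.0% of 21549 genes. The median log2 fold change of the 10 was 4.11, and that of all genes tested 0.06. In KO, all 10 again did not overlap (43.9% of all genes), and 9 were called higher of the 9 that passed the filter, Tnp1 being left out by it (42.2% of all genes); 6 would have passed on mTEClo alone. With no filter all 10 were called in KO (40.3% of 21628 genes). The WT and KO comparisons share no library.

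**Figure D2:**
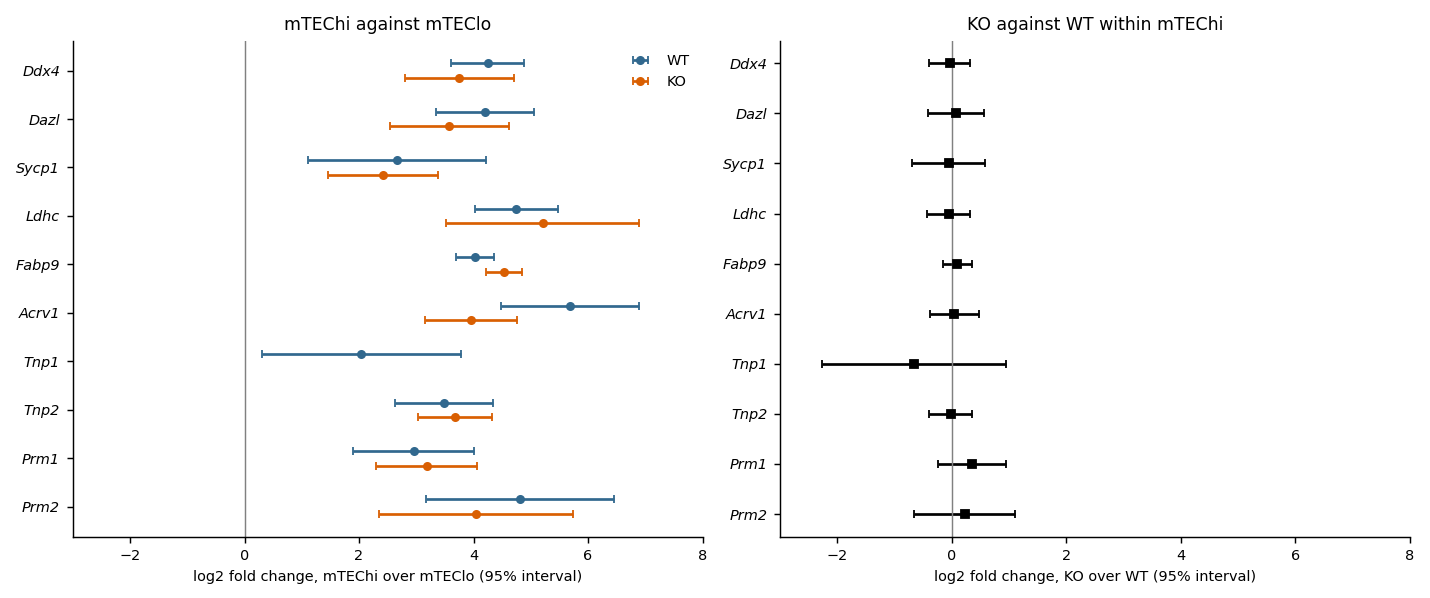
Log2 fold changes of the 10 genes with their 95% intervals from edgeR, for mTEChi over mTEClo in WT (blue) and KO (orange) on the left, where Tnp1 in KO is absent because it was not tested, and for KO over WT within mTEChi (black) on the right. The values on the left run from 2.04 for Tnp1 to 5.68 for Acrv1 in WT, while the intervals on the right all include 0.

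The share of the mTEChi level already present in mTEClo differed between the genes. In WT, mTEClo held 1.84% of the mean mTEChi level of Acrv1, 3.25% for Prm2, 3.64% for Ldhc and 5.18% for Ddx4. The highest shares were those of Prm1 (12.7%), Sycp1 (15.8%) and Tnp1 (23.6%). In WT, all 10 lay between the shares of the 2 regulators, 0.836% for Aire and 33.8% for Fezf2. The WT shares of Tnp1 and Acrv1 rest on 14 and 11 mTEClo reads, and 37 of the 45 reads of Sycp1 came from a single library. In KO, Sycp1 (18.5%) and Prm1 (10.9%) were again the highest. The KO share of Acrv1 was 6.35%, and that of Tnp1 was 0%, below the 0.856% of Aire.

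Compared per gene length, as RPKM (read counts scaled by gene length and library size), the order of the genes in WT mTEChi was led by Fabp9 with 54.1 ± 9.64 RPKM (SD, n = 3), above 95.4% of the 21962 genes with a value above 0. Tnp2 followed with 6.81 ± 1.39 RPKM, and Prm1 with 2.56 ± 0.642, Ldhc with 2.11 ± 0.40997, Acrv1 with 1.62 ± 0.0607 and Ddx4 with 1.38 ± 0.1204 RPKM came next. Dazl was at 0.838 ± 0.269, Prm2 at 0.7703 ± 0.277, Tnp1 at 0.428 ± 0.181 and Sycp1 at 0.249 ± 0.0765 RPKM, the last above 16.7% of genes. The 3 libraries of neighbours in this order overlapped for Prm1 and Ldhc, Dazl and Prm2, Prm2 and Tnp1, and Tnp1 and Sycp1, so these pairs were not separated beyond their spread. The other 5 neighbouring pairs did not overlap. Ddx4, close to Tnp2 in CPM, was below Tnp2, Prm1, Ldhc and Acrv1 per length.

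Within mTEChi the genes did not rise and fall together. Over the 6 libraries, the highest level was 1.37 times the lowest for Acrv1, 1.43 times for Fabp9, 1.45 times for Tnp2, 1.49 times for Ddx4 and 1.501 times for Ldhc. The ratio was 1.81 for Prm1, 1.91 for Sycp1, 1.95 for Dazl, 2.51 for Prm2 and 24.7 for Tnp1, in which KO library 3 had 2 reads. WT library 2 held the highest WT level of Fabp9, Ddx4, Sycp1 and Acrv1 but the lowest of Tnp2, Prm2 and Dazl. Across the 45 pairs of genes, the correlation of log2 levels over the 6 mTEChi libraries ran from -0.840 to 0.873, with a median of -0.040, whereas over all 16 libraries it ran from 0.619 to 0.987, with a median of 0.858. These correlations describe the libraries, which share their depth and, over all 16, the 3 populations.

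Loss of Psmb11 left no called difference in the 10 genes in mTEChi. The genotypes overlapped for all 10, against 8.99% of all genes whose libraries did not overlap, and 0 of 10 were called, against 0.0051% of all genes (1 gene, Psmb11 itself); 0 of the 10 had an unadjusted p under 0.05, and DESeq2's Wald test also called 0. Log2 fold changes, KO over WT, were 0.098 for Fabp9 (95% interval -0.15 to 0.35) and -0.039 for Ddx4 (-0.39 to 0.32). For Tnp2 the value was -0.02 (-0.39 to 0.35), for Ldhc -0.053 (-0.43 to 0.32) and for Acrv1 0.045 (-0.38 to 0.47). A 2-fold change in either direction lay outside the intervals of these 5 genes, the better measured ones. The intervals were also within 2-fold for Dazl (0.07, -0.42 to 0.56), Sycp1 (-0.054, -0.69 to 0.58) and Prm1 (0.35, -0.25 to 0.95). They reached past it upward for Prm2 (0.23, -0.65 to 1.11) and downward for Tnp1 (-0.66, -2.27 to 0.95). For these genes a 2-fold change in that direction was not excluded. Without KO mTEChi library 3 the Tnp1 value was -0.039.

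In mTEClo, 8 of the 10 genes passed the filter and 0 were called between KO and WT, against 0.00586% of all genes. Fabp9 was lower in every KO library than in every WT library, with a log2 change of -0.40 (SE 0.20, adjusted p = 0.438), and Acrv1 was higher in every KO library, with 1.79 (SE 0.88, adjusted p = 0.432); in all, 2 of the 10 did not overlap, against 19.2% of all genes. Acrv1 rested on 44 reads in KO against 11 in WT, and its value became 2.59 without WT mTEClo library 2. Of the 2 genes outside the test, Tnp1 had 14 reads in WT and 0 in KO, and Prm2 had 5 in WT and 12 in KO. The difference of the KO effects, mTEChi minus mTEClo, was called for 0 of the 10, against 0.0101% of all genes. It was 0.51 for Fabp9 (SE 0.21, unadjusted p = 0.0306, adjusted p = 0.897) and -1.74 for Acrv1 (SE 0.68, unadjusted p = 0.0225, adjusted p = 0.884), the 2 of the 10 with an unadjusted p under 0.05; without WT mTEClo library 2 the Acrv1 value was -2.56.

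In cTEC the 10 genes were read in patches, each library with its own set. WT library 1 had reads of 5 of the 10 genes, WT library 2 of 8, KO library 1 of 6 and KO library 2 of 3; Tnp1 had 0 reads in all 4. Fabp9 was at 1.03 and 0.655 CPM in WT and 9.96 and 0.215 CPM in KO, where library 1 held 744 reads and library 2 held 14. Dazl was at 0.114 and 0.0919 CPM in WT and 0 and 3.998 CPM in KO. KO library 2 thus held 260 reads of Dazl, at a higher CPM than any of the 6 mTEChi libraries, and KO library 1 held 0. That ranking depends on the scaling: in RPKM, Dazl in KO library 2 was at 0.930, inside the mTEChi range of 0.537 to 1.056. Tnp2 was at 0.183 and 0.345 CPM in WT and 0.7096 and 2.58 CPM in KO. Ddx4 was at 0.0458 and 0.884 CPM in WT and at 0 in both KO libraries. Sycp1 was at 0 and 0.3905 CPM in WT and 0.348 and 0 CPM in KO, in 1 library of each genotype. Prm2 was read in WT library 2 alone, 20 reads, and Prm1 in KO library 1 alone, 14 reads. Acrv1 was at 0.114 and 0.0919 CPM in WT and 0.134 and 0 CPM in KO, and Ldhc had 1 read in WT library 2 and 11 in KO library 1.

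**Figure D3:**
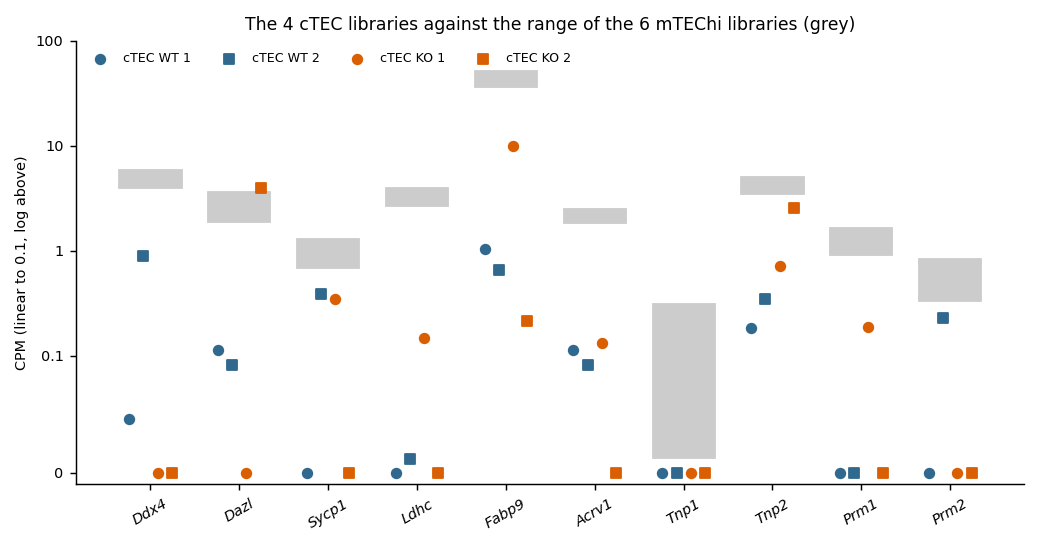
Level of the 10 genes in the 4 cTEC libraries (points; WT blue, KO orange; circles library 1, squares library 2) and the range over the 6 mTEChi libraries (grey bars), in CPM on an axis that is linear from 0 to 0.1 and logarithmic above. Dazl in KO library 2, at 3.998 CPM, lies above the mTEChi range, while the other points lie below it or, for Tnp1, at 0. In RPKM, which are not drawn, Dazl in KO library 2 was inside the range of the mTEChi libraries.

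No gene was called between KO and WT in cTEC: 3 of the 10 passed the filter and 0 were called, with 0 at an unadjusted p under 0.05, against 0% of all genes, at 2 libraries a group. Even Psmb11, the deleted gene, missed the threshold: edgeR put it at -7.19 on the log2 scale, and its adjusted p was 0.0855. The lack of calls here therefore cannot show that the 10 genes were unchanged in KO cTEC. Tnp2 did not overlap and was higher in KO, and Ddx4 did not overlap and was lower, 2 of 10 against 45.6% of all genes. The log2 fold change of Tnp2 was 2.63 (95% interval -1.83 to 7.09, adjusted p = 0.631) and that of Fabp9 2.62 (-1.21 to 6.45, adjusted p = 0.561). Leaving out a KO library leaves 1 in that group, which is then assumed to vary like the WT pair. The Tnp2 value was then 3.27 without KO library 1 and 1.45 without KO library 2. The Fabp9 value turned to -1.97 without KO library 1 and was called without KO library 2, at 3.595 (adjusted p = 0.00826). The fit of all 16 libraries, which gives cTEC the smaller spread of the mTEC libraries, called 3 of the 10. Aire was higher in both KO libraries, and more so in library 1, which held 744 reads of Fabp9 against 14 in library 2 and a larger sum of the 10 genes (11.5 against 6.80 CPM), but 0 reads of Dazl against 260 and less Tnp2. The part of Aire in the KO cTEC levels was not tested.

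Between the WT populations, the 10 genes were also higher in mTEChi than in cTEC. All 10 had mTEChi libraries above both cTEC libraries, against 47.7% of all genes, and 8 were called higher, against 43.5% of all genes. Only Fabp9 and Tnp2 would have passed the filter on the WT cTEC libraries alone; the other 8 entered the test through mTEChi, where they are high, so these counts say little about the 10. Log2 fold changes were 5.68 (SE 0.28, adjusted p = 5.76e-06) for Fabp9, 4.88 (SE 0.52, adjusted p = 1.97e-04) for Dazl and 4.395 (SE 0.44, adjusted p = 1.35e-04) for Acrv1. Tnp2 was higher by 4.15 (SE 0.44, adjusted p = 1.83e-04) and Ddx4 by 3.42 (SE 0.97, adjusted p = 0.0163). Tnp1 and Prm1 had 0 reads in WT cTEC and were at least 12.1-fold and 64.4-fold higher in mTEChi, from a limit of 3 reads over the cTEC group. Ldhc had 1 read in WT cTEC, a ratio of 571 (95% counting interval 102 to 22574). Prm2 and Sycp1 were not called, with log2 fold changes of 2.32 (SE 1.24, adjusted p = 0.129) and 2.48 (SE 1.26, adjusted p = 0.115). These values moved with the cTEC library left out, where the 1 that remains is assumed to vary like the mTEChi libraries. Without WT cTEC library 2, Prm2 and Sycp1 were both called, against 0 reads in the remaining library (adjusted p = 1.59e-04 and 2.15e-06), and Ddx4 moved to 6.704. Without WT cTEC library 1, Sycp1 was called at 1.51, Prm2 was at 1.33 and Ddx4 was at 2.51, and without any 1 of the 3 mTEChi libraries Ddx4 missed the threshold (adjusted p of 0.0582 to 0.0656).

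From WT cTEC to WT mTEClo, 7 of the 10 genes were tested and 2 were called, both higher in mTEClo, against 24.1% of all genes. Fabp9 rose on the log2 scale by 1.59 (SE 0.37, adjusted p = 0.00929). Prm1 had 39 reads in mTEClo and 0 in cTEC and was at least 8.11-fold higher (adjusted p = 0.031997). Ldhc did not overlap either, with 34 reads against 1, but missed the threshold (adjusted p = 0.06002), and was called without WT cTEC library 2, which held that read (adjusted p = 0.0483, with 1 cTEC library left). Acrv1, which was not tested, did not overlap in the other direction, with 11 reads in mTEClo and 18 in cTEC. In all, 4 of the 10 did not overlap, against 65.7% of all genes. The other tested genes, Tnp2, Ddx4, Dazl and Sycp1, overlapped between the 2 populations. The Fabp9 call was lost in the fit of all 16 libraries, with a weight per library, with the replicate block and without WT mTEClo library 1 (adjusted p of 0.172, 0.225, 0.0606 and 0.0522), and the number of called genes ran from 0 without WT mTEClo library 1, through 1 without WT mTEClo library 3, to 4 without WT cTEC library 1, where 1 cTEC library is left.

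Other genes of germ cells, listed by role, were for the most part higher in WT mTEChi than in WT mTEClo too, with one group that was not. Genes of the germline RNA and piRNA pathway, which guard the germ line against transposons, were close to Ddx4 in this: 22 of 25 tested genes rose and 1 fell, with a median log2 fold change of 2.99, where the median of all genes tested was 0.06 and 43.0% rose and 37.9% fell. The maternal factor gene Dppa3 rose by 6.87 (SE 0.27, adjusted p = 5.34e-10) and the PIWI gene Piwil2 by 3.32 (SE 0.18, adjusted p = 7.37e-09). Of the genes of meiotic chromosomes and recombination, 19 of 29 tested genes rose and 5 fell (median 1.59). Stra8, which starts meiosis, rose by 4.86 (SE 0.23, adjusted p = 2.98e-09), and Sycp2, a partner of Sycp1 in the synaptonemal complex, by 3.83 (SE 0.21, adjusted p = 8.66e-09). Genes of the acrosome and sperm surface, the group of Acrv1, moved alike: 19 of 25 tested genes rose and 3 fell (median 3.22), with Crisp1, a sperm coat protein gene of the epididymis, at 8.08 (SE 0.42, adjusted p = 5.29e-09). Of the genes of sperm metabolism and the flagellum, 15 of 21 tested genes rose and 1 fell (median 1.79); the one that fell was Hk1, a hexokinase gene that somatic cells also use, at -0.95 (SE 0.072, adjusted p = 1.73e-07).

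The genes of spermatid chromatin other than the 4 described were the exception, in that they rose no more often than all genes tested. Their difference from the other lists was not tested, and the lists differ in how their genes passed the filter, as given below. Of 19 with an entry, 14 were tested, of which 5 rose and 5 fell, with a median of 0.20. Over all genes tested in this comparison, to which the lists below also belong, 43.0% rose and 37.9% fell. Chd5, a chromatin remodeller of spermatids, rose by 1.99 (SE 0.17, adjusted p = 5.42e-07), and the 2 named genes that fell, Rnf8 (-0.84 (SE 0.076, adjusted p = 7.89e-07)) and Pygo2 (-0.72 (SE 0.071, adjusted p = 1.65e-06)), are also expressed in somatic cells. Among germ cell transcription factors, 11 of 14 tested genes rose and 3 fell (median 2.72), with Sohlh1, a factor of spermatogonia and oocytes, at 8.05 (SE 0.46, adjusted p = 1.22e-08), and Pou5f1, the pluripotency factor, at 6.94 (SE 0.42, adjusted p = 2.47e-08). Of the oocyte genes, 15 of 17 tested genes rose and 0 fell (median 3.403), with the zona pellucida gene Zp2 at 3.403 (SE 0.076, adjusted p = 9.44e-12). Of the X-linked germ cell genes, 12 of 12 tested genes rose and 0 fell (median 4.41), with 8 of the 20 in the table having too few reads to be tested. Between KO and WT in mTEChi, 0 genes of any of these 8 lists were called, against 0.0051% of all genes. A gene could pass the filter on its mTEChi libraries alone, so the counts describe genes with reads in at least 1 of the 2 populations. Such a gene could hardly have been found lower in mTEChi. In KO against WT within mTEClo, without mTEChi libraries, the filter passed fewer genes of each of the 8 lists. It passed 4 X-linked, 8 transcription factor, 10 oocyte and 12 acrosome and sperm surface genes. It also passed 12 of spermatid chromatin, 14 of sperm metabolism and the flagellum, 17 of germline RNA and 23 of meiosis.

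**Figure D4:**
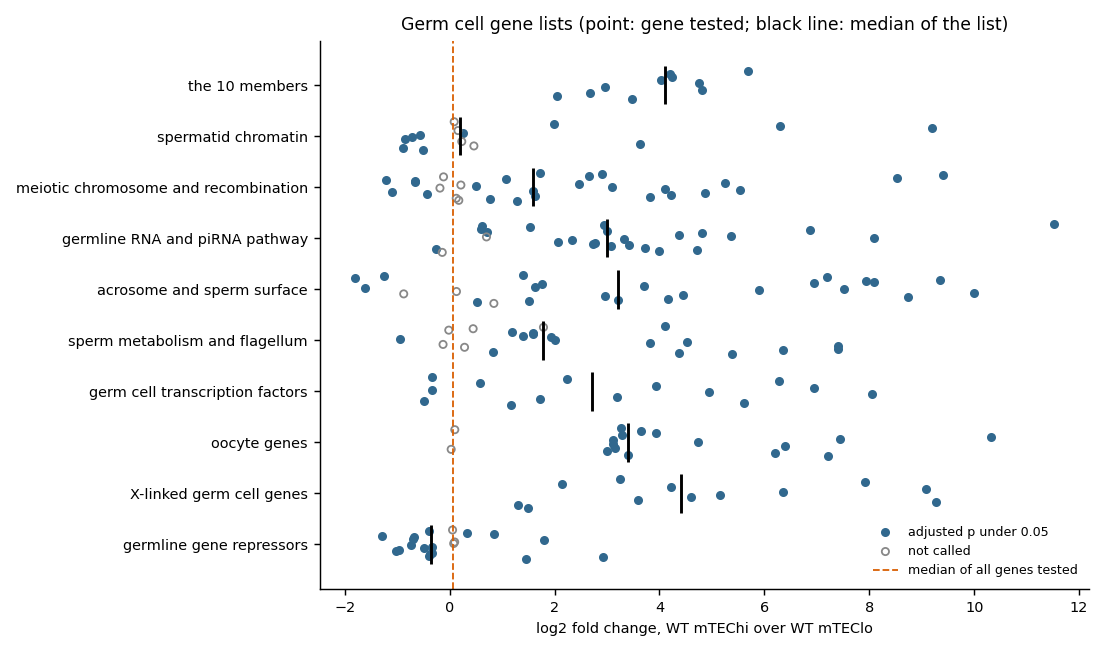
Log2 fold change, WT mTEChi over WT mTEClo, of each gene tested in the 10 genes described here and in 9 lists of related genes; filled points have an adjusted p under 0.05, open points do not, black lines are medians of the lists and the dashed line the median of all genes tested. The medians run from -0.36 for the germline gene repressors to 4.41 for the X-linked genes, and spermatid chromatin lies near that of all genes.

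Genes whose products silence germ cell genes in somatic cells, such as the Polycomb complex with E2F6 and the DNA methylation machinery, were listed as well. Of 20 tested, 5 were higher and 12 lower in WT mTEChi than in WT mTEClo (median -0.36), where 43.0% of all genes were higher and 37.9% lower. E2f6 fell by 1.28 (SE 0.088, adjusted p = 7.36e-08) on the log2 scale in WT and its KO value was -1.41 (SE 0.10, adjusted p = 8.41e-07). Uhrf1, which recruits the maintenance methyltransferase, rose by 2.92 (SE 0.097, adjusted p = 1.32e-10) and Hells, a chromatin remodeller needed for DNA methylation, by 1.795 (SE 0.11, adjusted p = 2.86e-08); both are also genes of dividing cells. Of the 15 regulators of antigen expression in the medulla, 6 rose and 5 fell, shares close to those of all genes, with Irf4 at 3.25 (SE 0.076, adjusted p = 1.14e-11) and Sirt1, the deacetylase of Aire, at 3.02 (SE 0.087, adjusted p = 4.19e-11). The part of these genes in the levels of the 10 was not tested.

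Of 17 different flanking genes, 14 were tested; 8 were higher and 4 lower in WT mTEChi. Around Fabp9, Pmp2 on one side, encoding the fatty acid binding protein of myelin, rose by a log2 fold change of 4.88 (adjusted p = 4.45e-11), and Fabp4 on the other, that of fat cells and macrophages, by 3.34 (adjusted p = 6.6e-11). The annotation holds a transcript model that joins Fabp9 to Pmp2 on the same strand, so some reads of the pair could stem from it. Around Sycp1, Tshb, the beta subunit of thyroid-stimulating hormone, rose by 6.96 (adjusted p = 5.38e-07) and Nr1h5 by 2.78 (adjusted p = 3.39e-05). Next to Tnp1, however, Igfbp5 changed by -3.66 (adjusted p = 7.32e-12), from 4397 CPM in WT mTEClo to 352 CPM in WT mTEChi, and next to Tnp2 the cytokine inhibitor gene Socs1 by -0.76 (adjusted p = 1.02e-05). Ldha, next to its germ cell paralog Ldhc, was at 189 CPM in WT mTEClo and 207 CPM in WT mTEChi and was not called (adjusted p = 0.074998). Over the fixed list of neighbours and paralogs, 11 of 23 tested genes rose and 7 fell, where 43.0% of all genes rose and 37.9% fell.

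The genes whose log2 levels ran most closely with each of the 10 over the 16 libraries were taken from 17381 genes with a mean of at least 1 CPM in some group, for the 8 of the 10 that reach that level. Nearest to Fabp9 were Slc1a2 (r = 0.994), the glutamate transporter of astrocytes, Ank1 (r = 0.994), the ankyrin of red cells, and Slc17a4 (r = 0.994). Nearest to Ldhc were Ptpn5 (r = 0.996), a phosphatase of striatal neurons, Mybpc3 (r = 0.995), a myosin binding protein of heart muscle, and Mup6 (r = 0.994), a major urinary protein. Acrv1 was nearest to Caly (r = 0.995), to the pituitary factor Tbx19 (r = 0.994) and to the mast cell protease gene Mcpt4 (r = 0.993). For Ddx4 the nearest was Fcrla (r = 0.9902) of B cells, for Tnp2 Tal2 (r = 0.989), and for Dazl Clec2l (r = 0.985). Germ cell genes were among the 3 nearest for Prm1, with Clgn, a chaperone of spermatocytes (r = 0.986), and for Sycp1, with Adam32 (r = 0.969), a testis gene. These values are descriptions over libraries that share 3 populations and their depth.

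Marker lists of other cell types had higher sums in the WT mTEChi libraries too, in a comparison in which 43.0% of all genes were called higher. The 8 myeloid markers summed to 518 to 539 CPM in WT mTEChi against 81.6 to 89.2 CPM in WT mTEClo, and all 8 were called higher. The 8 markers of Sertoli and Leydig cells, somatic cells of the testis, summed to 92.4 to 93.7 against 8.25 to 8.64 CPM, with 6 of 8 called higher and 1 lower; Lhcgr was at 0 in WT mTEClo. The 8 thymocyte markers summed to 58.8 to 111 against 22.5 to 48.2 CPM, with 5 called higher. In KO the thymocyte sums overlapped, at 60.3 to 162 CPM in mTEChi and 28.4 to 69.1 CPM in mTEClo, with 3 called higher. The KO sums of the myeloid and the Sertoli and Leydig markers did not overlap and were higher in mTEChi. Of the lists of the sorted cells themselves, 7 of 9 mTEC markers were called higher and 2 lower. Of 8 cTEC markers, 5 were called higher and 2 lower, among the higher ones Ccl25 at 3.95 (SE 0.12, adjusted p = 6.6e-11). The sums of both lists were nevertheless lower in WT mTEChi than in WT mTEClo. They were 5667 to 6182 against 6775 to 7189 CPM for mTEC markers and 1082 to 1122 against 2020 to 2351 CPM for cTEC markers. The part of any of these cell types in the levels of the 10 genes was not tested.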

How the data were processed

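Libraries were made with an unstranded TruSeq RNA kit, per the labels' protocols, so reads of overlapping antisense genes cannot be told apart. The authors deposited read counts per gene symbol, not normalised; HTSeq 0.5.4p1, CASAVA 1.8.2 and the build mm10 are named in the submitters' processing notes, and the aligner is not given in the sources used here. They also deposited RPKM values, used for levels between genes. Reads in no gene (13.7% to 30.4% of a library) stayed out of totals.

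Each comparison was fitted on the counts of its own groups with edgeR 4.0.16 in R 4.3.3 (TMM, filterByExpr, quasi-likelihood F test, Benjamini-Hochberg over all genes tested, threshold 0.05), because the biological coefficient of variation was 0.652 in cTEC, 0.131 in mTEClo and 0.113 in mTEChi. SE and 95% intervals come from the F statistic. Alternatives were DESeq2 1.42.0 (size factors, and its Wald test), no filter, a fit of all 16 libraries, voom with a weight per library and limma 3.58.1 on log2(RPKM + 0.1), a replicate block, and each library left out. On simulated data the test recovered 67% of 2-fold and 80% of 4-fold changes in WT mTEChi against mTEClo, where 22 unchanged genes of 19231 tested were called. It recovered 37% and 58% in cTEC KO against WT. In WT mTEChi against cTEC it recovered 39% and 69%, but 456 unchanged genes of 19414 were called. In WT mTEClo against cTEC it recovered 45% and 72%, and 58 unchanged genes of 17052 were called. Changes were placed only in genes above a minimum mean count, so recovery for genes with few reads was not simulated. No 2 libraries of a group were identical.

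The 10 genes and the lists were chosen with earlier results of these data known. All 10 were named; of each list at most the 3 genes with the smallest p in WT mTEChi against mTEClo, and of the genes most alike the 3 with the highest Pearson correlation of log2(CPM + 0.5). Replicate numbers are shared between groups in the labels. Same-numbered libraries deviated together in every pair only for KO mTEChi and mTEClo (correlations of 0.298, 0.125 and 0.232), where the blocked fit also called 9 of the 10 genes.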

Additional observations from a re-analysis of the deposited data

How the results depend on the processing

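Over the alternatives, the 29 results that were called and their 365 recomputed values kept their direction, and 19 of these values lost the call; of 521 recomputed values of the 38 results that were not called, 50 turned sign, 0 of them past the threshold, and 11 gained a call. The number of the 10 genes called in cTEC KO against WT was 3 in the fit of all 16 libraries and 0 to 1 with a library left out. The number for WT mTEClo against cTEC was 1 in the fit of all 16 libraries, 1 with a weight per library and 0 to 4 with a library left out. In KO against WT within mTEChi, small values changed side: Tnp2 was 0.091 with a weight per library and 0.0404 on RPKM, Ldhc 0.015 and 0.014, and Sycp1 0.024 on RPKM. With a library left out, they ranged over -0.016 to 0.27 for Fabp9, -0.18 to 0.096 for Tnp2, -0.049 to 0.49 for Prm2, -0.25 to 0.056 for Ddx4, -0.18 to 0.27 for Dazl, -0.27 to 0.15 for Sycp1, -0.062 to 0.16 for Acrv1 and -0.19 to 0.091 for Ldhc. In cTEC, Fabp9 ranged over -1.97 to 3.595 and Tnp2 over 1.45 to 3.27. The cause was not tested. Without the filter, the genes called of all genes went from 0 to 290 higher and 93 lower in cTEC KO against WT and from 0 higher and 1 lower to 3 higher and 18 lower in mTEClo. Tnp1 and Prm2 rest on few reads in mTEClo. In cTEC the fitted coefficient of variation between replicates was 0.652, against 0.131 in mTEClo and 0.113 in mTEChi, with library totals within the range of the mTEChi libraries.

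With the replicate number as a block, 0 of the 10 genes were called in WT mTEClo against cTEC, 9 in WT mTEChi against mTEClo (Tnp1 lost), 7 in WT mTEChi against cTEC (Tnp1 lost) and 0 in the other comparisons of genotype; Sycp1 in KO against WT within mTEChi was 9.99e-04. Outside KO mTEChi against mTEClo, correlations of the deviations of same-numbered libraries were mixed in sign or small. They were 0.259, 0.0245 and -0.142 for KO and WT mTEClo, and 0.230, -0.0929 and -0.0763 for KO and WT mTEChi. For WT mTEChi and mTEClo they were -0.0596, -0.00237 and -0.287, and for KO and WT cTEC 0.0110. The library 1 values of 0.259 and 0.230 lay inside the range of KO mTEChi and mTEClo (0.125 to 0.298).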

Other observations

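Some relatives of 2 of the germ cell genes, Fabp9 and Ldhc, were also higher in mTEChi. Ldha, the paralog beside Ldhc, was not called by edgeR in WT (adjusted p = 0.075). In WT, the fatty acid binding protein gene Fabp5 was at 805, 771 and 825 CPM in mTEChi and 155, 159.8 and 140.3 CPM in mTEClo, and Fabp12, another member of the cluster of Fabp9, was at 5.99, 6.68 and 6.79 CPM and 0.242, 0.443 and 0.273 CPM. In cTEC, Fabp5 was at 269 and 217 CPM in WT, between the other populations, whereas Fabp12 was at 0 and 0.161 CPM. Ldhb, the lactate dehydrogenase subunit of heart, was at 239, 239 and 250.3 CPM in WT mTEChi and 184, 180.3 and 166 CPM in WT mTEClo, beside Ldhc at 2.66, 3.33 and 3.998 CPM and 0.0879, 0.144 and 0.131 CPM. The libraries of the 2 populations did not overlap for any of these genes and were higher in mTEChi, as were those of 44.5% of all genes; the sizes of the differences were not compared by a test.

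In KO cTEC library 1, which held the most Fabp9 of the cTEC libraries, its neighbour Fabp4 was at 76.5 CPM and Fabp12 at 0.669 CPM, against 10.8 and 0.0154 CPM in KO cTEC library 2. Fabp5, also of this family, went the other way, at 221 CPM in library 1 and 248.8 CPM in library 2. Each of these is a difference between 2 libraries with no test.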
